A study of Mus musculus with 4 samples.

Results

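The 44 genes described here encode NF-kB, its inhibitors and the signalling chain that leads to it from the tumour necrosis factor (TNF) receptors and from receptors that use the adaptor MyD88. They were chosen by name, as subunits, inhibitors, kinases, adaptors, ligases and receptors of that chain, and all 44 of 44 were found among the 54532 genes of the tables. The cells, polymorphonuclear myeloid-derived suppressor cells (PMN-MDSC), resemble neutrophils and hold T cell responses in check, and they came from spleens of C57BL/6 newborns. One group was kept for 5 days with NECA, an agonist of adenosine receptors that resists breakdown, and the other with its solvent DMSO, and each group has 2 libraries. Each condition supplied 300000 lysed cells, and the RNA was copied and amplified by the SMARTer method before sequencing. The labels give no dose of NECA and are silent on whether both libraries of 1 group stem from different animals or cultures. The p-values then reflect only how far these samples differ, which may be technical.

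NF-kB is a family of dimeric transcription factors held in the cytoplasm by IkB proteins. Receptors for TNF, bacterial products or interleukin 1 recruit adaptors and ubiquitin ligases, which activate the kinase TAK1 and then the IkB kinase (IKK) complex. IKK marks IkB for destruction, and the freed dimers enter the nucleus, where they also switch on genes for their own inhibitors. Most of this regulation acts on proteins, which transcript counts do not show. In neutrophils the pathway prolongs survival and drives production of cytokines. Adenosine receptors that raise cyclic AMP are known to dampen inflammatory output of myeloid cells, and the comparison of NECA with DMSO shows whether the transcripts of this machinery differed after the treatment.

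The libraries held 15864120 to 18712625 counts. The label of the cells fits their markers: the 14 neutrophil genes fixed as markers summed to 138000 and 139000 CPM (counts scaled to a common library size) in NECA replicates 1 and 2 and to 124000 and 129000 CPM in DMSO replicates 1 and 2. Markers of other cells were present at lower levels, and their sums were lower with NECA. The 20 macrophage and monocyte markers summed to 401 and 316 CPM with NECA and to 833 and 726 CPM with DMSO, and 15 of them were called lower with NECA by edgeR. The 14 B cell markers summed to 569 and 509 CPM with NECA and to 614 and 627 CPM with DMSO, most of it Cd37 (483 and 495 CPM with NECA, 455 and 459 CPM with DMSO), which other leukocytes share. The other 13 summed to 86.4 and 14.5 CPM with NECA and to 159 and 167 CPM with DMSO. The 14 markers of T and NK cells summed to 19.4 and 19.4 CPM with NECA and to 31.6 and 33.4 CPM with DMSO, and Cd3e was at 0 in both NECA libraries. The 11 erythroid markers summed to 384 and 60.7 CPM with NECA and to 1250 and 544 CPM with DMSO. The 10 dendritic cell markers summed to 27.1 and 15.0 CPM with NECA and to 42.8 and 36.9 CPM with DMSO, and the 11 of basophils, mast cells and eosinophils to 89.6 and 64.3 CPM with NECA and to 121 and 127 CPM with DMSO. In such bulk RNA, fewer cells of a type and less RNA per cell cannot be told apart.

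None of the 44 signalling genes was called higher or lower with NECA. Each was tested with edgeR's quasi-likelihood test within a fit of all 13083 genes that passed the filter on low counts, and all 44 passed that filter. Of all tested genes, 1.33% were called at an adjusted p under 0.05 (0.352% higher and 0.978% lower), so a set of this size would hold few calls at the background share. The smallest adjusted p among the 44 was 0.121. At an unadjusted p under 0.05 there were 4 higher (9.09%, against 6.81% of all tested genes) and 1 lower (2.27%, against 8.88%). DESeq2 also called 0, with 2 at an unadjusted p under 0.05, of the 43 to which it gave an adjusted p. The median log2 fold change of the 44 was 0.026, against -0.0065 for all tested genes, with 23 above 0 and 21 below. Of the 44, 41 averaged 10 CPM or more. All tested genes at that level had a median of 0.028, with 41.5% below 0, close to the median of the 44. With library size alone as the scale, which moved the median of all genes from TMM by -0.07, the median of the 44 was -0.046 and 0 were called by edgeR, with 0 higher and 6 lower at an unadjusted p under 0.05 (2.19% of all tested genes were higher and 12.9% lower by that rule). On that scale 8.82% of all calls at an adjusted p under 0.05 were higher, against 26.4% with TMM.

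The intervals show how closely the difference between these libraries was measured. They cover neither the choice of scale nor, if the libraries are technical repeats, the spread between animals or cultures, so they do not bound an effect of NECA. The 95% interval of the log2 fold change lay within 1.5-fold in either direction for 39 of the 44 genes, and had a median width of 0.38. The interval lay wholly above 0 for 4 genes (Tnf, Tnfrsf1a, Tirap and Tnfaip2) and wholly below 0 for 1 (Nfkb2). A log2 fold change of less than 0.25 in size was found for 39 genes (88.6%, against 67.1% of all tested genes). Among genes averaging 10 CPM or more, where counting noise is lower, it was found for 38 of 41 signalling genes (92.7%) and for 89.3% of all. In 15 genes (34.1%) both NECA libraries lay above both DMSO libraries, and in 8 (18.2%) both lay below, against 22.4% and 24.3% of all tested genes. These background shares, like those at an unadjusted p under 0.05, include genes of low level and were not matched to the level of the 44. The remaining 21 overlapped. The median size of the log2 fold change, 0.09, was close to that of the difference between NECA replicates (0.08) and between DMSO replicates (0.09). The fold change compares groups of 2 libraries, which vary less than single libraries, so these sizes are not on the same footing.

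**Figure D1:**
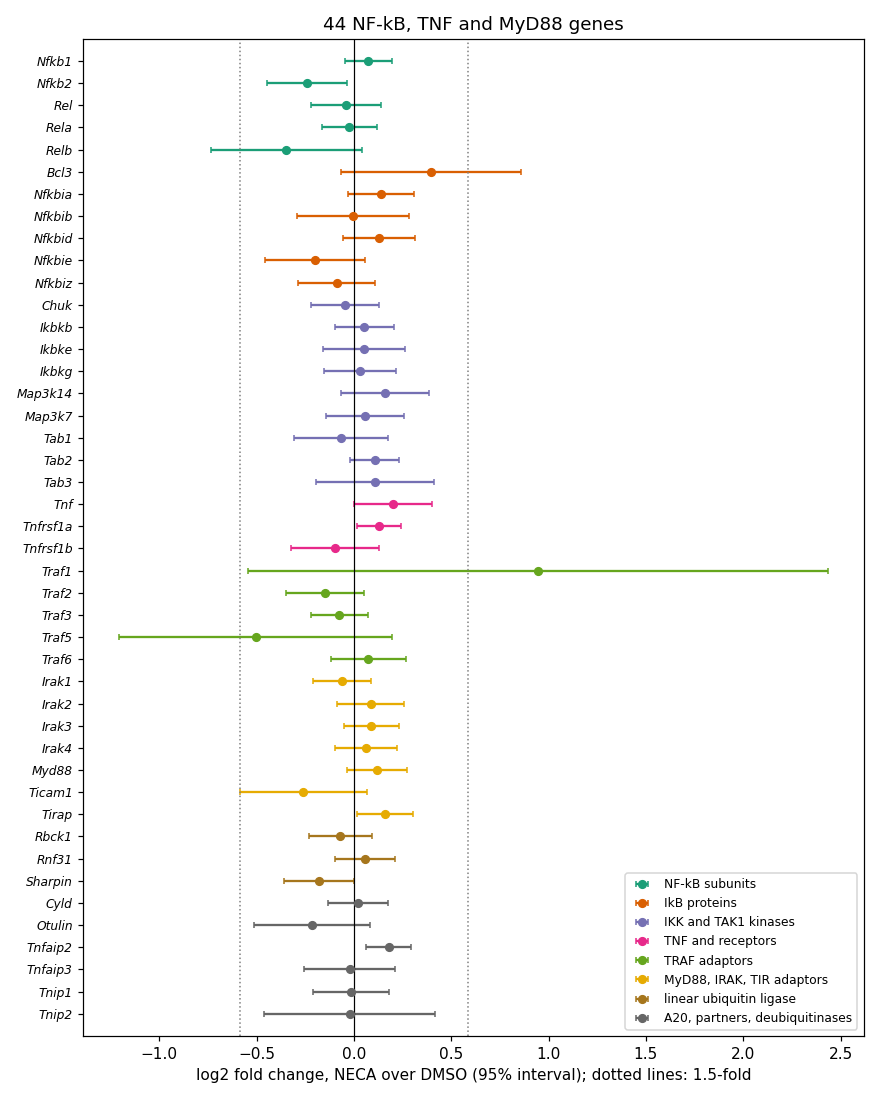
Log2 fold change of each of the 44 genes, NECA over DMSO (horizontal axis), with its 95% interval from edgeR's fit; genes run down the page by role. Of the 44 intervals 39 lie between the dotted lines at 1.5-fold, and the widest belongs to Traf1, the least abundant gene.

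Levels between genes are compared here by the deposited FPKM (fragments per length of the gene and per sequencing depth). That length depends on the exons annotated for a gene, so ranks and shares between genes are approximate. Tnfrsf1a, which encodes the main TNF receptor, was the highest, at a mean of 119 FPKM over the 4 libraries. It was followed by the inhibitor gene Nfkbia at 91.5 FPKM, Tnfaip2 at 66.0 FPKM, Rela at 40.6 FPKM and Myd88 at 38.3 FPKM. At the low end were Traf1 at 0.0656 FPKM and Traf5 at 0.872 FPKM, and the other 42 genes were at 2.72 FPKM or above. In 41 of the 44 genes the highest and the lowest of the 4 libraries, in CPM, were within 1.5-fold of each other.

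**Figure D2:**
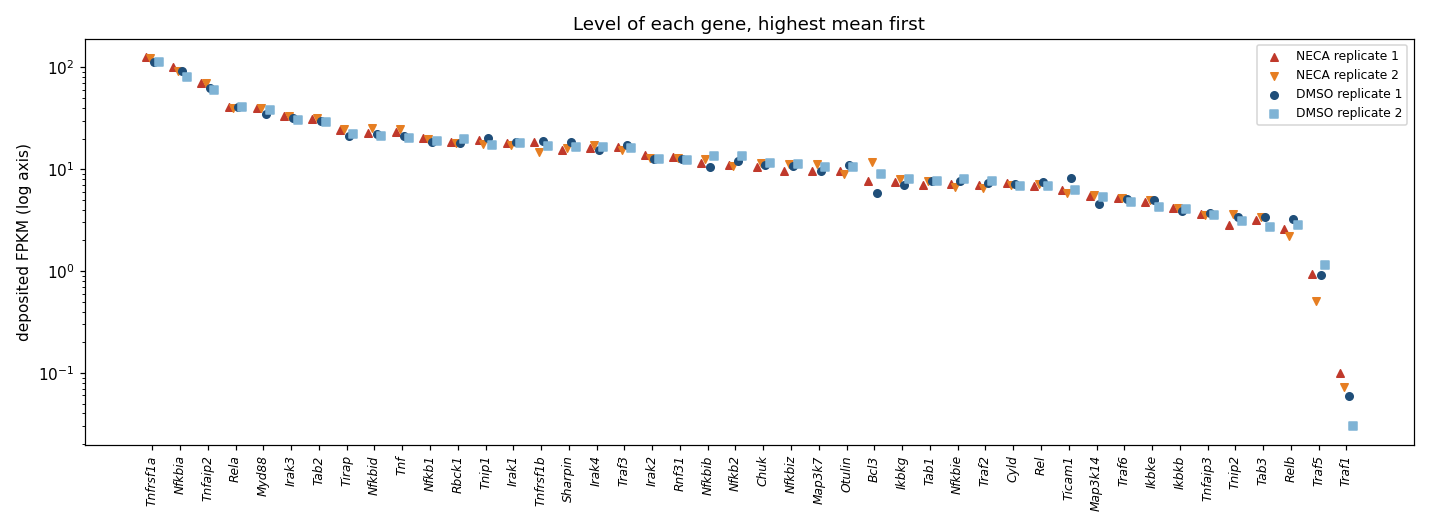
Deposited FPKM (vertical axis, log scale) of each gene in each of the 4 libraries, ordered by mean. Tnfrsf1a and Nfkbia lead, Traf5 and Traf1 close the row, and the symbols of the NECA and DMSO libraries lie close together for nearly every gene.

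At the head of the chain stand the ligand and its receptors. In what follows, paired values are those of replicates 1 and 2. Tnf, the gene of the cytokine itself (chromosome 17, 35199381 to 35202007, GRCm38), had 38.3 and 40.4 CPM with NECA and 35.2 and 33.1 CPM with DMSO. The groups did not overlap, but the difference was small and was not called (log2 fold change 0.20, SE 0.09, 95% interval 0.00 to 0.40, adjusted p = 0.318 by edgeR). Tnfrsf1a, on chromosome 6 (125349362 to 125362484), had 325 and 322 CPM with NECA and 294 and 297 CPM with DMSO. Here too both NECA libraries were the higher ones, at a log2 fold change of 0.13 (SE 0.05, 95% interval 0.02 to 0.24, adjusted p = 0.251 by edgeR). Tnfrsf1b, the gene of the other TNF receptor, which recruits TRAF proteins directly and lacks a death domain, had 71.2 and 56.7 CPM with NECA and 72.4 and 64.7 CPM with DMSO. Its groups overlapped, with the lowest value in NECA replicate 2 (log2 fold change -0.10). Of the FPKM of both receptors, Tnfrsf1a took 87.1% and 89.3% with NECA and 85.7% and 87.1% with DMSO.

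The next tier carries signals from Toll-like and interleukin 1 receptors. Myd88, the central adaptor, had 103 and 103 CPM with NECA and 90.2 and 99.1 CPM with DMSO (log2 fold change 0.12, SE 0.07). Its NECA libraries lay above its DMSO libraries by about the distance between the DMSO libraries. The counts of Myd88 are uncertain, because 11.3% of its exonic bases overlap the opposite-strand gene Acaa1a and the use of strand in counting is not given. Tirap, the adaptor that brings MyD88 to the membrane receptor for lipopolysaccharide, had 120 and 121 CPM with NECA and 105 and 111 CPM with DMSO. Its groups did not overlap and its log2 fold change of 0.16 (SE 0.07, 95% interval 0.02 to 0.30) was not called (adjusted p = 0.254 by edgeR), and an antisense gene overlaps 9.84% of its exonic bases. Ticam1, the adaptor of the MyD88-independent branch, had 18.7 and 17.4 CPM with NECA and 24.6 and 18.7 CPM with DMSO. That difference (log2 fold change -0.26, SE 0.15) came mostly from DMSO replicate 1, the single high library, and was -0.053 without it.

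The IRAK kinases act just below MyD88. Irak4, which starts the cascade, had 81.9 and 86.1 CPM with NECA and 77.7 and 83.2 CPM with DMSO. Irak1, its substrate, had 84.7 and 82.3 CPM with NECA and 87.6 and 86.7 CPM with DMSO. Irak2, which sustains the response, had 61.1 and 56.7 CPM with NECA and 55.4 and 55.5 CPM with DMSO. None of these differed by more than 0.09 on the log2 scale. Irak3, which encodes an inhibitory member of the family (IRAK-M), was the most abundant per length, at 33.2 FPKM with NECA and 31.0 FPKM with DMSO. It made up 40.9% and 41.0% of the summed IRAK FPKM with NECA and 40.5% and 39.0% with DMSO, so the inhibitory member held the largest share in each of the 4 libraries.

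TRAF proteins are ubiquitin ligases and scaffolds below both kinds of receptor. Traf3, which keeps the alternative NF-kB pathway off, was the most abundant at 16.3 FPKM, with 121 and 113 CPM with NECA and 127 and 119 CPM with DMSO. Traf2, its partner at TNF receptors, had 35.8 and 33.6 CPM with NECA and 37.4 and 39.5 CPM with DMSO. Both NECA libraries of Traf2 were lower, by a margin that was not called (log2 fold change -0.15, SE 0.09, adjusted p = 0.493 by edgeR). Traf6, which serves the MyD88 branch, had 41.5 and 40.7 CPM with NECA and 40.2 and 37.8 CPM with DMSO. Traf5, a relative of Traf2 that is prominent in lymphocytes, had 4.23 and 2.33 CPM with NECA and 4.18 and 5.20 CPM with DMSO. Only NECA replicate 2 stood apart (log2 fold change -0.51, SE 0.32, and -0.14 without that library), which was also the library with the lowest sum of the 13 B cell markers other than Cd37 (14.5 CPM, against 86.4 CPM in NECA replicate 1). NECA replicate 2 also had the lower sum of the NECA libraries for macrophage, erythroid, dendritic cell and basophil, mast cell and eosinophil markers. The T and NK cell markers stood at 19.4 CPM in both. The part of RNA of B cells or other cells in the value of Traf5 was not tested. Traf1 was close to the limit of detection, with 0.879 and 0.646 CPM with NECA and 0.523 and 0.266 CPM with DMSO. Its 95% interval ran from -0.55 to 2.44, so the depth does not fix its direction.

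The adaptors act through ubiquitin chains. The linear ubiquitin ligase has the catalytic subunit HOIP (Rnf31) and the partners HOIL-1 (Rbck1) and Sharpin. Sharpin had 58.4 and 61.3 CPM with NECA and 71.5 and 63.8 CPM with DMSO. Its NECA libraries were both lower, at a log2 fold change of -0.18 (SE 0.08, adjusted p = 0.321 by edgeR), and DMSO replicate 1 was the highest. Rnf31 had 75.0 and 74.1 CPM with NECA and 73.1 and 70.2 CPM with DMSO, and Rbck1 85.3 and 83.1 CPM with NECA and 84.1 and 92.6 CPM with DMSO. Those 2 genes stood at log2 fold changes of 0.06 and -0.07.

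Ubiquitin-editing proteins switch the pathway off. Tnfaip3, which encodes A20, had 26.1 and 25.8 CPM with NECA and 27.1 and 25.6 CPM with DMSO. The libraries overlapped and the log2 fold change was -0.02 (SE 0.11, 95% interval -0.26 to 0.21). Tnip1, the gene of an A20-binding partner, had 69.3 and 62.7 CPM with NECA and 71.5 and 61.7 CPM with DMSO, where the spread within each group was larger than the difference between them. Cyld, a deubiquitinase, had 92.5 and 87.5 CPM with NECA and 90.8 and 86.5 CPM with DMSO. Otulin, which removes linear chains, had 16.3 and 15.2 CPM with NECA and 18.7 and 17.8 CPM with DMSO (log2 fold change -0.21, SE 0.14). Tnip2, another A20 partner, stood at -0.02 with a wider interval of -0.46 to 0.42.

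Tnfaip2 had the smallest p of the 44 genes. This TNF-inducible gene of vesicle transport and membrane protrusions is not an enzyme of the ubiquitin system (chromosome 12, 111442469 to 111455018). It had 349 and 349 CPM with NECA and 316 and 302 CPM with DMSO. The NECA libraries were equal to within 1 CPM and both above DMSO, by a log2 fold change of 0.18 (SE 0.05, 95% interval 0.06 to 0.30, adjusted p = 0.121 by edgeR's quasi-likelihood test). An antisense gene overlaps 6.30% of its exonic bases.

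The 9 genes around the kinases TAK1 and IKK all lay between -0.07 and 0.16 on the log2 scale. Tab2, the adaptor that couples ubiquitin chains to TAK1, was the highest of them at 30.5 FPKM. It had 192 and 196 CPM with NECA and 182 and 179 CPM with DMSO, without overlap (log2 fold change 0.11, SE 0.06, adjusted p = 0.411 by edgeR). Map3k7, the gene of TAK1, had 61.5 and 72.7 CPM with NECA and 61.4 and 67.3 CPM with DMSO, so its replicates differed more than its groups. Map3k14, the kinase NIK that starts the alternative pathway, had 35.8 and 36.2 CPM with NECA and 29.7 and 34.7 CPM with DMSO (log2 fold change 0.16, SE 0.10). Its lowest library was DMSO replicate 1.

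The core IKK complex joins the kinases IKK-alpha (Chuk) and IKK-beta (Ikbkb) to the scaffold NEMO (Ikbkg). Chuk had 53.5 and 57.9 CPM with NECA and 56.5 and 58.5 CPM with DMSO. Ikbkb had 79.1 and 78.9 CPM with NECA and 74.7 and 77.5 CPM with DMSO. Ikbkg had 60.1 and 64.4 CPM with NECA and 57.3 and 64.6 CPM with DMSO. Per length, Chuk took 47.7% and 48.5% of their summed FPKM with NECA and 50.3% and 48.9% with DMSO, and Ikbkb 18.8% and 17.6% with NECA and 17.7% and 17.3% with DMSO. These shares depend on the length taken for each gene. Ikbkb had the most CPM of these genes, but its annotated exons cover 19078 bases, against 5087 for Chuk. Ikbke, a related kinase of interferon induction, stood at a log2 fold change of 0.05.

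**Figure D3:**
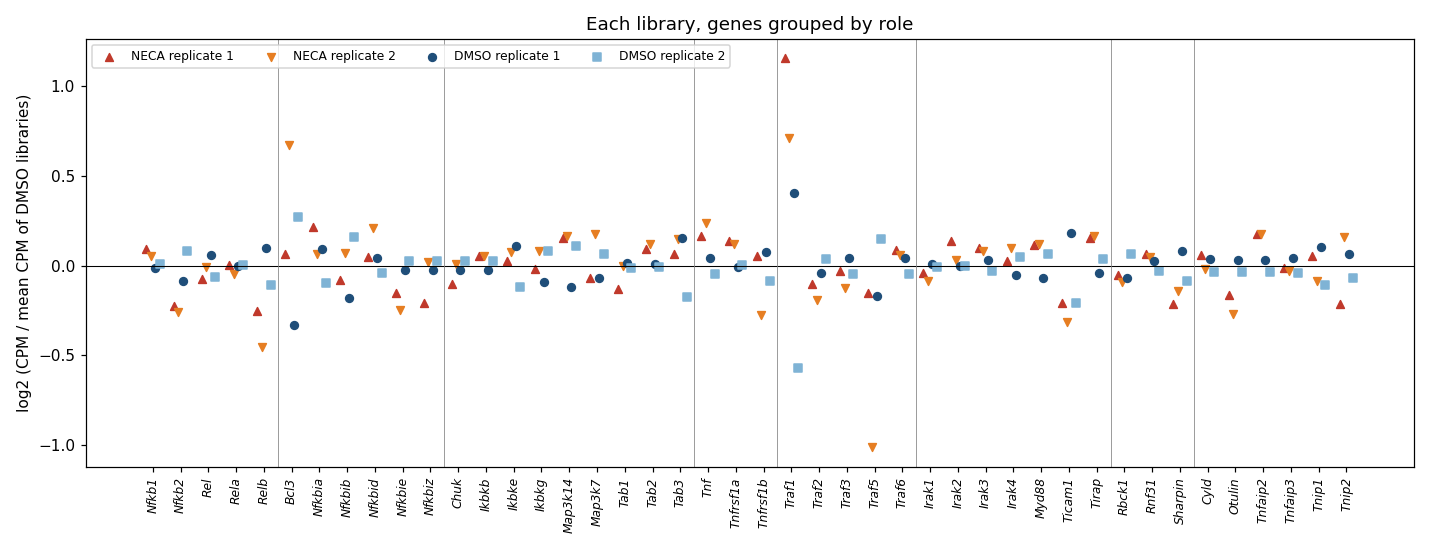
Log2 of each library's CPM over the mean CPM of the DMSO libraries (vertical axis) for each gene, grouped by role. Most symbols lie within 0.25 of 0; Traf1, Traf5 and Bcl3 are the widest, and for Bcl3 both libraries numbered 2 lie above those numbered 1.

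The IkB proteins hold NF-kB back, and several are made in response to it. The promoters of the genes matched in RefSeq (GRCm38.p6) were searched, in the 250 bases before each annotated start, for an NF-kB-type motif: GGG, any 3 bases, then TTCC, or on the other strand GGAA, any 3 bases, then CCC. A match was present in 12 of 38 signalling genes with a promoter in the table (31.6%), against 5.31% of the 27025 genes in it. The 12 were Nfkb2, Rel, Nfkbia, Nfkbid, Nfkbie, Chuk, Map3k7, Traf3, Traf5, Tnfaip3, Tnip1 and Cyld. The 3 promoters below belong to inhibitors of the pathway and show the matches in capitals, in the orientation of the gene.
Nfkbia, chr12:55492648-55492897, minus strand: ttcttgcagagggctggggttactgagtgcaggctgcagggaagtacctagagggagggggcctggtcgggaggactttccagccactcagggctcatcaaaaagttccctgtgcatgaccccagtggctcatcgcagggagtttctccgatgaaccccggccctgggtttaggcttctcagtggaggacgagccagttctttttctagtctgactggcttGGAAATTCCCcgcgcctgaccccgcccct
Nfkbie, chr17:45555450-45555699, plus strand: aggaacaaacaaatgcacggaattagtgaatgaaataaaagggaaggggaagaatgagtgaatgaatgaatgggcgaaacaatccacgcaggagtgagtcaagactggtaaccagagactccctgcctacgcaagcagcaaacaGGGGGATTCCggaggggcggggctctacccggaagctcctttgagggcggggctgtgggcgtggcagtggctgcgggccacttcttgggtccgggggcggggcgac
Tnip1, chr11:54962941-54963190, minus strand: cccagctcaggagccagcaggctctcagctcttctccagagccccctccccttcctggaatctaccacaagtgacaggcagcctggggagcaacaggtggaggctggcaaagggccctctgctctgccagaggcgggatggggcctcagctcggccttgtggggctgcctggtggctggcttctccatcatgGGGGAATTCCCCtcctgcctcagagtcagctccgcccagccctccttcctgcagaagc
The match of Nfkbia, GGAAATTCCC, begins 29 bases before the start, and that of Nfkbie, GGGGGATTCC, 106 bases before it. In Tnip1 the matches GGGGAATTCC and GGAATTCCCC overlap each other, at 58 and 56 bases before the start. Tnfaip3 has GGAAATCCCC 12 bases before its upstream start. The 12 genes with a match ran from -0.51 to 0.14 on the log2 scale (median -0.03) and the 26 without from -0.26 to 0.95 (median 0.07).

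Nfkbia, the gene of the main inhibitor IkB-alpha (chromosome 12, 55489410 to 55492647), had 163 and 147 CPM with NECA and 149 and 131 CPM with DMSO. The groups overlapped, since DMSO replicate 1 exceeded NECA replicate 2, and the log2 fold change was 0.14 (SE 0.08, 95% interval -0.03 to 0.31, adjusted p = 0.420 by edgeR). Nfkbie, which encodes IkB-epsilon, had 21.6 and 20.2 CPM with NECA and 23.6 and 24.5 CPM with DMSO. Its NECA libraries were both lower, at -0.20 (SE 0.12) on the log2 scale. Nfkbib, which encodes IkB-beta, had 24.8 and 27.5 CPM with NECA and 23.1 and 29.3 CPM with DMSO. The DMSO libraries of Nfkbib enclosed the NECA libraries, and 16.4% of its exonic bases overlap the opposite-strand gene Ccer2, which leaves its counts uncertain.

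The nuclear members of the family work as cofactors of NF-kB dimers. Nfkbid had 52.8 and 58.9 CPM with NECA and 52.4 and 49.5 CPM with DMSO (log2 fold change 0.13, SE 0.09). Nfkbiz, an activator of secondary response genes, had 48.3 and 56.5 CPM with NECA and 54.7 and 56.6 CPM with DMSO. Bcl3, which binds dimers of the processed subunits, had 19.2 and 29.2 CPM with NECA and 14.6 and 22.1 CPM with DMSO. In both groups replicate 2 of Bcl3 was above replicate 1, and the groups overlapped. Its log2 fold change of 0.39 (SE 0.21, 95% interval -0.07 to 0.86, adjusted p = 0.406 by edgeR) was the second largest of the 44 in the upward direction. Without NECA replicate 1 it stood at 0.68, and without NECA replicate 2 at 0.07. Leaving out the DMSO libraries in turn gave 0.12 (replicate 1 absent) and 0.72 (replicate 2 absent), so the value of Bcl3 rested on single libraries.

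At the end of the chain are the DNA-binding subunits. Rela, the main activating subunit (chromosome 19, 5637483 to 5648130), had 111 and 107 CPM with NECA and 111 and 111 CPM with DMSO. The log2 fold change of Rela was -0.02 (SE 0.06, 95% interval -0.16 to 0.12). Nfkb1, whose product is processed into the usual partner of RelA, had 243 and 236 CPM with NECA and 226 and 229 CPM with DMSO (log2 fold change 0.07, SE 0.06). Rel, the lymphoid and myeloid subunit c-Rel, had 50.8 and 53.1 CPM with NECA and 55.8 and 51.0 CPM with DMSO. The dimers of the classical pathway therefore had transcripts whose intervals all lay between -0.22 and 0.20.

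Both subunits of the alternative pathway had lower values with NECA, without a call. Nfkb2, the precursor of its processed subunit (chromosome 19, 46304320 to 46312385), had 35.9 and 35.0 CPM with NECA and 39.5 and 44.2 CPM with DMSO. Its log2 fold change was -0.24 (SE 0.09, 95% interval -0.44 to -0.03), the only interval of the 44 wholly below 0, and it was not called (adjusted p = 0.237 by edgeR). Overlapping genes cover 18.1% of the exonic bases of Nfkb2, mostly on the other strand, so its counts are uncertain. Relb, the partner of the Nfkb2 product, had 9.94 and 8.66 CPM with NECA and 12.7 and 11.0 CPM with DMSO. Both NECA libraries of Relb were lower as well, at -0.35 (SE 0.18, adjusted p = 0.383 by edgeR). B cells, macrophages and dendritic cells also express these genes, and the summed markers of macrophages (401 and 316 CPM with NECA, 833 and 726 CPM with DMSO) moved in the same direction; their part in the values of Nfkb2 and Relb was not tested. Of the summed FPKM of the 5 subunits, Rela held 49.3% to 50.3% in the 4 libraries. This share depends on the length taken for each gene. Nfkb1 had more CPM than Rela, but its annotated exons cover 12061 bases, against 3072 for Rela. Nfkb2 held 13.4% and 13.5% with NECA and 14.6% and 16.2% with DMSO.

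**Figure D4:**
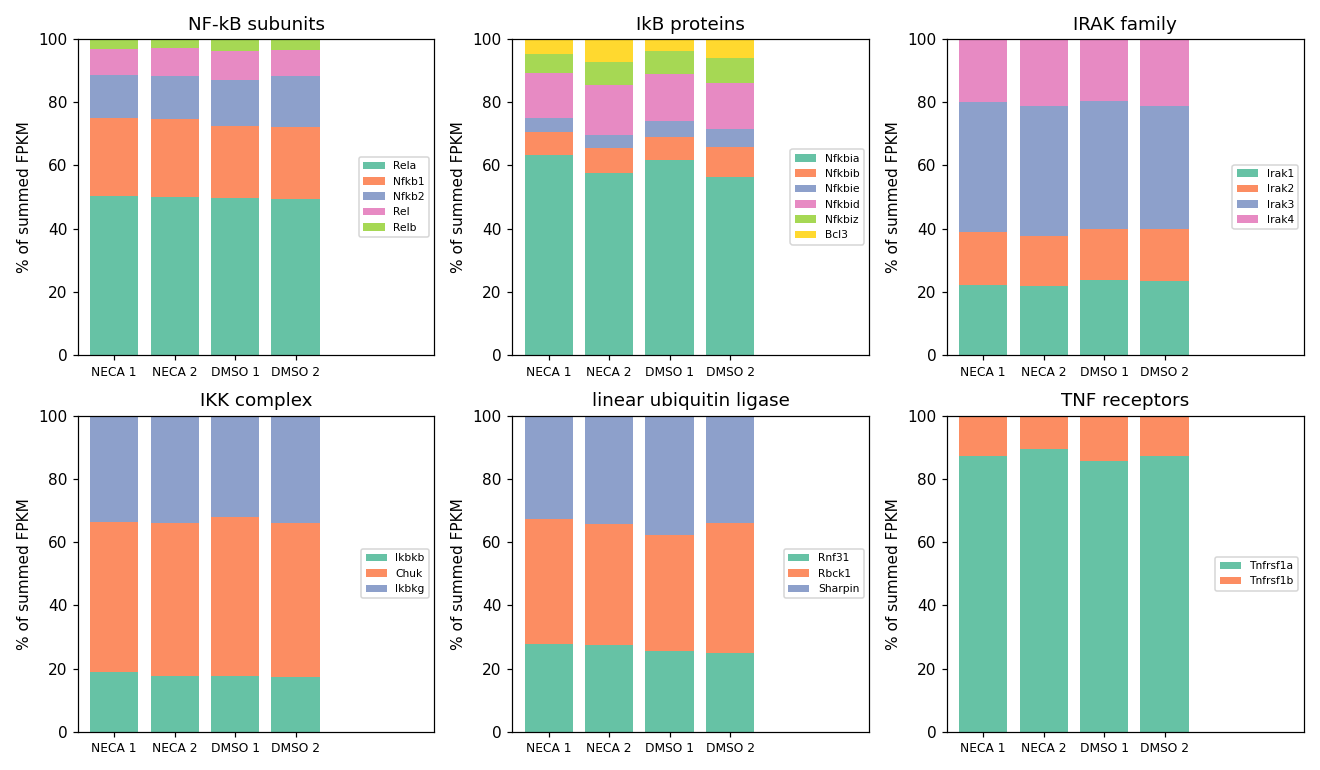
Share of the summed FPKM taken by each gene of 6 families or complexes (vertical axis, %) in each library, NECA libraries left of DMSO libraries. Shares between genes depend on the length taken for each gene. The bars of the 4 libraries are nearly alike in each panel; Rela holds 49.3% to 50.3% of the subunits and Nfkbia 56.4% to 63.4% of the IkB transcripts.

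A list of 51 other genes of the pathway was read in the same fit. Of these, 45 were tested, and 0 were higher and 0 lower at an adjusted p under 0.05 by edgeR. At an unadjusted p under 0.05, 3 were higher and 4 lower, against 6.81% and 8.88% of all tested genes. The median log2 fold change was 0.05, against -0.0065 for all tested genes. Split by level after the values were seen, the 31 genes averaging 10 CPM or more had a median of 0.057, against 0.028 for all tested genes. The 14 below 10 CPM had -0.48, against -0.15. DESeq2 called 0 higher and 1 lower, Tnfrsf13c. The smallest p belonged to Tnfrsf13c, the receptor of B cells for the survival factor BAFF, with 2.58 and 0.646 CPM with NECA and 4.81 and 6.96 CPM with DMSO. Both NECA libraries of Tnfrsf13c were lower (log2 fold change -1.83, SE 0.46, adjusted p = 0.0768 by edgeR), as were those of the 13 summed B cell markers other than Cd37 (86.4 and 14.5 CPM with NECA, 159 and 167 CPM with DMSO), and the part of B cell RNA in it was not tested. It was called with DESeq2 (adjusted p = 0.0381), with the replicate block (adjusted p = 0.0242 by edgeR) and with no filter on low counts (adjusted p = 1.18e-06 by edgeR). Without NECA replicate 1 its value was -3.17 and without NECA replicate 2 it was -1.18, in fits that leave 1 library in the NECA group. The other 4 alternatives gave no call: RLE size factors, library size alone, and leaving out DMSO replicate 1 or 2 (adjusted p between 0.0595 and 0.225 by edgeR). Card9, the adaptor of C-type lectin receptors, had 216 and 230 CPM with NECA and 200 and 190 CPM with DMSO. Its log2 fold change was 0.20 (SE 0.06, adjusted p = 0.134 by edgeR), and 0.24 without NECA replicate 1. Ltb, a membrane ligand of the TNF family that signals to the alternative pathway, had 133 and 126 CPM with NECA and 115 and 110 CPM with DMSO (log2 fold change 0.20, SE 0.07).

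Known targets of NF-kB were read as a second list of 51 genes. Of the 37 tested, 0 were called higher and 0 lower by edgeR, and the edgeR median log2 fold change was -0.09, against -0.0065 for all tested genes. At an unadjusted p under 0.05 by edgeR, 4 were higher and 7 lower, against 6.81% and 8.88% of all tested genes. DESeq2 called 1 higher, Lcn2, and 0 lower. Lcn2, a granule protein that binds bacterial siderophores, came closest, with 9384 and 9015 CPM with NECA and 8224 and 8320 CPM with DMSO (log2 fold change 0.15, SE 0.03, adjusted p = 0.0560 by edgeR). Lcn2 is also a neutrophil granule gene and stands among the neutrophil markers. It was called with DESeq2 (adjusted p = 0.00674) and, by edgeR, with RLE size factors, no filter or the replicate block (adjusted p = 0.0479, 1.51e-05 and 0.0285), but had 0.081 (adjusted p = 0.275) with library size alone. Leaving out 1 library in turn gave Lcn2 0.13 to 0.19 on the log2 scale. Ccl5, a chemokine of T cells and macrophages, had 2 and 1 counts with NECA and 13 and 17 counts with DMSO (adjusted p = 0.107 by edgeR). Cd83, a surface marker of activated antigen-presenting and B cells, had 1.37 and 0.840 CPM with NECA and 3.34 and 2.66 CPM with DMSO. Its log2 fold change was -1.42 (SE 0.41, adjusted p = 0.111 by edgeR), and -1.82 without NECA replicate 1. Cd83 was called with no filter on low counts (adjusted p = 0.0145 by edgeR), but not with DESeq2, RLE size factors, library size alone or the replicate block. The 14 targets that were not tested, Il6, Il10, Il12b, Cxcl1, Cxcl10, Ccl2 and Nos2 among them, had at most 17 counts in any library, so a difference in them was not detectable at this depth.

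Split by level, a division made after the values were seen, the target list had differing medians. The 25 targets averaging 10 CPM or more ran from -0.42 to 0.25 on the log2 scale with a median of 0.05, and 16 were above 0. The 12 below 10 CPM ran from -3.06 to 0.18 with a median of -0.98, and 11 were below 0. The filter on low counts can pass a gene on the libraries of a single group, which selects for differences among genes near its cutoff. Ccl5, at -3.06, had 2 and 1 counts with NECA and 13 and 17 counts with DMSO. Among all tested genes the medians were 0.03 for the 7169 at or above 10 CPM and -0.15 for the 5914 below it, of which 63.3% lay below 0. The 20 macrophage, 14 B cell and 11 erythroid markers had medians of -1.49, -1.64 and -1.76. Only 7 of 14 T and NK cell and 5 of 10 dendritic cell markers were tested, with medians of -1.51 and -0.76. The 10 tested markers of basophils, mast cells and eosinophils had -0.80, and the 14 neutrophil markers 0.14. Some markers, such as Cd3g (8 and 2 counts with NECA, 16 and 25 with DMSO), also passed the filter on DMSO libraries alone. The part of cells other than neutrophils in the values of the low targets was not tested.

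**Figure D5:**
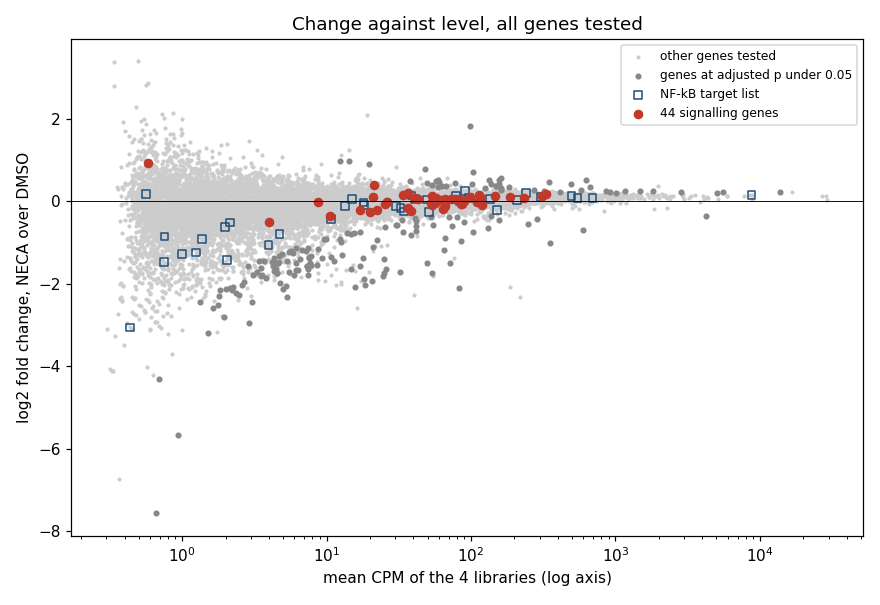
Log2 fold change, NECA over DMSO (vertical axis), against mean CPM of the 4 libraries (horizontal axis, log scale) for all 13083 tested genes. Most of the 44 signalling genes lie along 0 at medium and high levels, with Traf1 and Traf5 away from it at low levels; squares mark the NF-kB target list, whose members below 10 CPM lie mostly under 0.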

How the data were processed

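RNA of 4 libraries was analysed, 2 treated with NECA and 2 with DMSO, grouped by the labels. Per the file headers, the authors deposited raw read counts and FPKM per Ensembl gene. The submitters' processing notes name HISAT, StringTie and edgeR without versions, and mm10 and GRCm38 as builds. How reads were counted, with or without strand, and what became of reads matching several genes is not given in the sources used here. The deposited FPKM were the same counts over 1 length for each gene and 1 scale for each library (largest departure 4.65e-09). Counts were filtered with filterByExpr (minimum count 10), scaled by TMM and tested with edgeR 4.0.16 (R 4.3.3), in its quasi-likelihood test without a replicate block (2 residual degrees of freedom), with Benjamini-Hochberg adjustment over all genes tested and a threshold of 0.05. SE is the log2 fold change over the root of F, and the 95% interval uses the t quantile at the test's total degrees of freedom. The median of these was 11.8, more than the 2 residual ones because the test shares information between genes. CPM are on TMM-scaled sizes. At 15864120 to 18712625 counts per library, 1 count is 0.0523 to 0.0646 CPM. The test was checked on simulated counts of 13083 genes, of which 200 were changed. It recovered 59.7% of 1.5-fold, 91% of 2-fold and 100% of 3-fold changes, and 11 of its 178 calls were false. The changed genes were drawn only from the more abundant ones, with the spread estimated from these libraries. The recovery therefore does not apply to genes at low levels, such as Traf1 and Traf5. Positions and overlaps come from GENCODE M21 (GRCm38), and shared sequence was sought as 50-base stretches. Every signalling gene could be named; full values went to called genes and, per role, to the most abundant gene and that with the smallest p, with further genes added after their values were seen. Of the other lists, called genes and the 3 smallest p were named. The genes and lists were chosen with earlier results of these data known. Alternatives were DESeq2 1.42.0, RLE size factors, library size alone, no filter, a replicate block and each library left out. Replicates were not copies (chi-square per degree of freedom 5.01 for NECA and 6.36 for DMSO).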

Additional observations from a re-analysis of the deposited data

How the results depend on the processing

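With all libraries, 46 genes of the whole table were called higher and 128 lower. The counts moved to 150 higher with DESeq2 (131 lower), to 21 higher and 217 lower with library size alone, to 285 and 590 with no filter on low counts, and to 123 and 298 with the replicate number as a block. Leaving out 1 library gave 23 to 230 higher and 86 to 560 lower. A fit without a library does not see the spread of its group. Of the 44 signalling genes, 0 were called higher under each alternative except without NECA replicate 1, where Bcl3 made it 1, and 0 were called lower under all 9 alternatives. Their median was -0.046 with library size alone and -0.012 to 0.056 when 1 library was left out. No label pairs libraries of the same number, and the deviations of equally numbered libraries correlated at 0.022. The replicate block called 0 of the 44.

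The direction was the same under all 9 alternatives for 25 of the 44 genes and under 8 for Traf1, to which DESeq2 gave no adjusted p, and 18 changed sign under at least 1. With library size alone the log2 fold changes were -0.018 for Ikbkb, -0.041 for Ikbkg, -0.021 for Ikbke, -0.014 for Map3k7, -0.011 for Irak4, -0.015 for Rnf31 and -0.050 for Cyld. Nfkbib stood at 0.0037 with DESeq2 and 0.0038 with the replicate block. Leaving out 1 library gave -0.043 to 0.0082 for Rela, -0.11 to 0.024 for Rel, -0.17 to 0.17 for Nfkbib, -0.20 to 0.028 for Nfkbiz, -0.056 to 0.11 for Ikbkg, -0.064 to 0.17 for Ikbke, -0.096 to 0.016 for Chuk, -0.060 to 0.18 for Map3k7, -0.12 to 0.0030 for Tab1 and -0.054 to 0.28 for Tab3. It gave -0.27 to 0.060 for Tnfrsf1b, -0.069 to 0.019 for Tnfaip3, -0.12 to 0.095 for Tnip1, -0.21 to 0.16 for Tnip2 and -0.019 to 0.068 for Cyld. The cause of these changes was not tested. Traf1 and Traf5, both below 10 CPM, had the widest intervals, and depth limits what can be said of them.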
